A study of Mus musculus with 3 samples.

Results

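Expression of 10 genes known to respond to glucocorticoid hormone or to fasting was followed in mouse spleens bearing islet grafts. The genes were Tsc22d3, Fkbp5, Zbtb16, Sgk1, Klf9, Ddit4, Mt1, Mt2, Pdk4 and Angptl4, chosen by name, and every non-control probe carrying 1 of these names was taken. The choice was made with earlier results of these data known. They had 11 probes, 2 of them for Mt1, among 55679 probes with 34796 names on the array. All recipients were male C57BL/6J mice made diabetic with streptozotocin, which destroys beta cells, and the design text gives each of them 25 islets in the spleen and 100 islets beneath the kidney capsule. The sample labels name the capsular graft for Sample 3 only. The spleen of Sample 1 was taken just after transplantation (day 0) and that of Sample 2 on day 2. Sample 3 came from mice whose kidney with its graft was removed on day 100 and whose spleen was taken on day 139. Each time point was measured on 1 array, and neither the number of mice behind an array nor the age of the mice of each array is given in the labels. Time since transplantation, time since streptozotocin, age, surgery, glycemia and harvest therefore cannot be told apart. No test between time points was possible, and every comparison is between single arrays.

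The glucocorticoid receptor is a transcription factor that waits in the cytoplasm in a complex with heat shock proteins and immunophilins, and enters the nucleus when it binds corticosterone. It then binds palindromic response elements near its target genes, many of which restrain inflammation, cell growth or the receptor itself. Fasting and lack of insulin raise both corticosterone and free fatty acids, and the FOXO and PPAR factors then switch tissues from glucose to fat as fuel. Metallothioneins bind zinc and copper and are induced by metals through the factor MTF1, by glucocorticoids and in the acute phase response.

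Signals are given as quantile normalized intensity, a scale on which the 3 arrays share 1 distribution. The signal of one probe cannot be set against that of another. Each ratio carries the error of the scanner software. On the log2 scale it was 0.20 to 0.22 for the brightest probes of the members. It was 0.06 to 0.27 for the other genes given a ratio below, apart from G6pc and Pck1. It covers measurement of a spot and not the spread between mice. To be called higher, a probe needed a ratio of 1.5 or more together with a Z-score of 2 or more. To be called lower, it needed a ratio of 0.66 or less together with a Z-score of -2 or less. The Z-score is the log2 ratio in units of the local SD, taken over the 1000 probes closest in mean signal. All 11 probes were well above background on all 3 arrays, and no non-control spot was saturated. Of all probes, 54.4% were well above background on day 0, 53.8% on day 2 and 50.4% on day 139. B-cell markers, which define much of a spleen, were well above background for 10 of 10 genes on each array. All 3 arrays lay on 1 slide and were read in 1 scan.

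**Figure D1:**
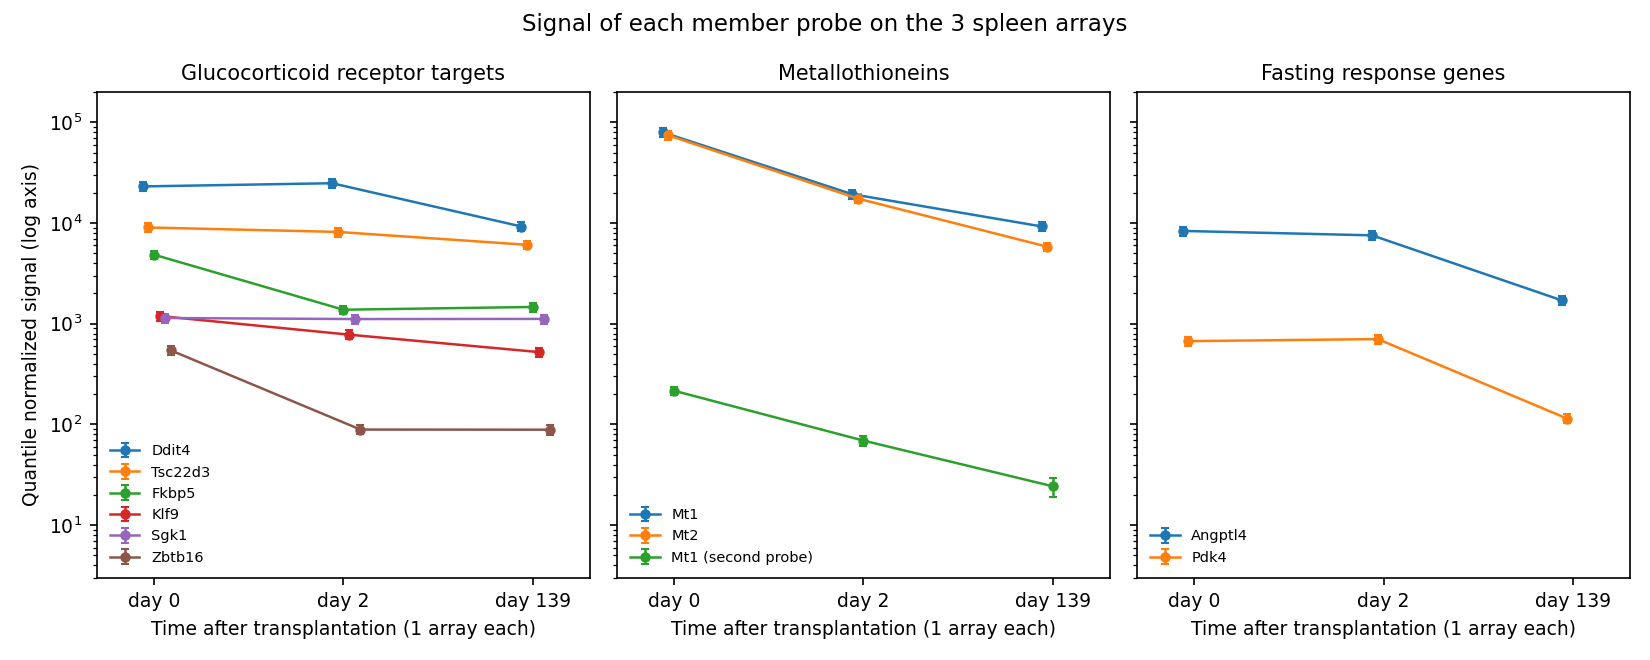
Quantile normalized signal (log axis) of each of the 11 member probes on the arrays of day 0, day 2 and day 139, grouped by the role of the gene. Points are single arrays and bars are the error of the scanner software. Fkbp5, Zbtb16 and the metallothioneins were already lower on day 2, Pdk4, Angptl4 and Ddit4 were lower on day 139 alone, and Sgk1 stayed between 1113 and 1140.

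The time courses were ordered by how much of the log2 difference between day 139 and day 0 was present on day 2, on the quantile normalized scale. Fkbp5 and Zbtb16 had reached their day 139 signal by day 2, with 105% and 99.8% of it present. Mt1 and Mt2 had covered 65.8% and 56.8% of it by their brightest probes, and Klf9 51.8%. The other Mt1 probe had covered 52.2%, less than Mt2. Angptl4 had covered 6.37% of it, and Pdk4 and Ddit4 had day 2 signals slightly above those of day 0, so that their whole difference lay between day 2 and day 139. Tsc22d3 and Sgk1 passed the criterion in no comparison. The order changed when the arrays were scaled to spike-in RNAs instead. Klf9 (log2 ratios -0.64 on day 2 and -0.76 on day 139) had then covered more of its difference than Mt1 or Mt2. The ratios were -1.98 and -2.67 for Mt1, and -2.04 and -3.28 for Mt2. Fkbp5 (-1.84 and -1.32) and Zbtb16 (-2.67 and -2.22) were then lower on day 2 than on day 139.

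On day 2, 4 of the 10 genes were called lower than on day 0 (Fkbp5, Zbtb16, Mt1 and Mt2), where 2.55% of the 32108 detected probes were called lower. None of the 10 was called higher, where 1.91% of all probes were. By the ratio of at most 0.66 alone, 5 of the 10 were lower, Klf9 being added, where 10.4% of all probes were. The median log2 ratio was -0.38 over the 10 genes and 0.01 over all detected probes.

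On day 139, 8 of the 10 genes were called lower than on day 0, all but Tsc22d3 and Sgk1, where 2.21% of all probes were called lower. No member was called higher, where 2.52% of all probes were. The ratio of at most 0.66 alone took the same 8 genes, where 14.7% of all probes passed it. The median log2 ratio was -2.01 over the 10 genes and -0.02 over all detected probes. All 10 ratios were below 1, that of Sgk1 not so under normexp background correction and spike-in scaling, and 52.2% of all ratios were. When the arrays were scaled to 8 spike-in RNAs instead, the median of all probes moved from -0.02 to 0.36, 1.18% of all probes were called lower and 4.76% higher, and Klf9 (-0.76) and Ddit4 (-0.92) were no longer called. Both were also lost when 1 SD over all probes stood in for the local SD, which left 6 genes called under either setting.

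On day 139 against day 2, 5 of the 10 genes were called lower (Ddit4, Mt1, Mt2, Pdk4 and Angptl4), where 1.77% of all probes were. None was called higher, where 2.39% of all probes were, and the ratio of at most 0.66 alone took the same 5 genes, where 14.4% of all probes passed it. The median was -0.82 over the 10 genes and -0.04 over all probes. Scaled to the spike-in RNAs, 3 genes were called (Mt2, Pdk4 and Angptl4), and with 1 SD over all probes 2 were (Pdk4 and Angptl4). The comparisons share arrays, so their counts are not independent of each other. Because the members were chosen with earlier results of these data known, the counts describe the list and test nothing against the shares of all probes.

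**Figure D2:**
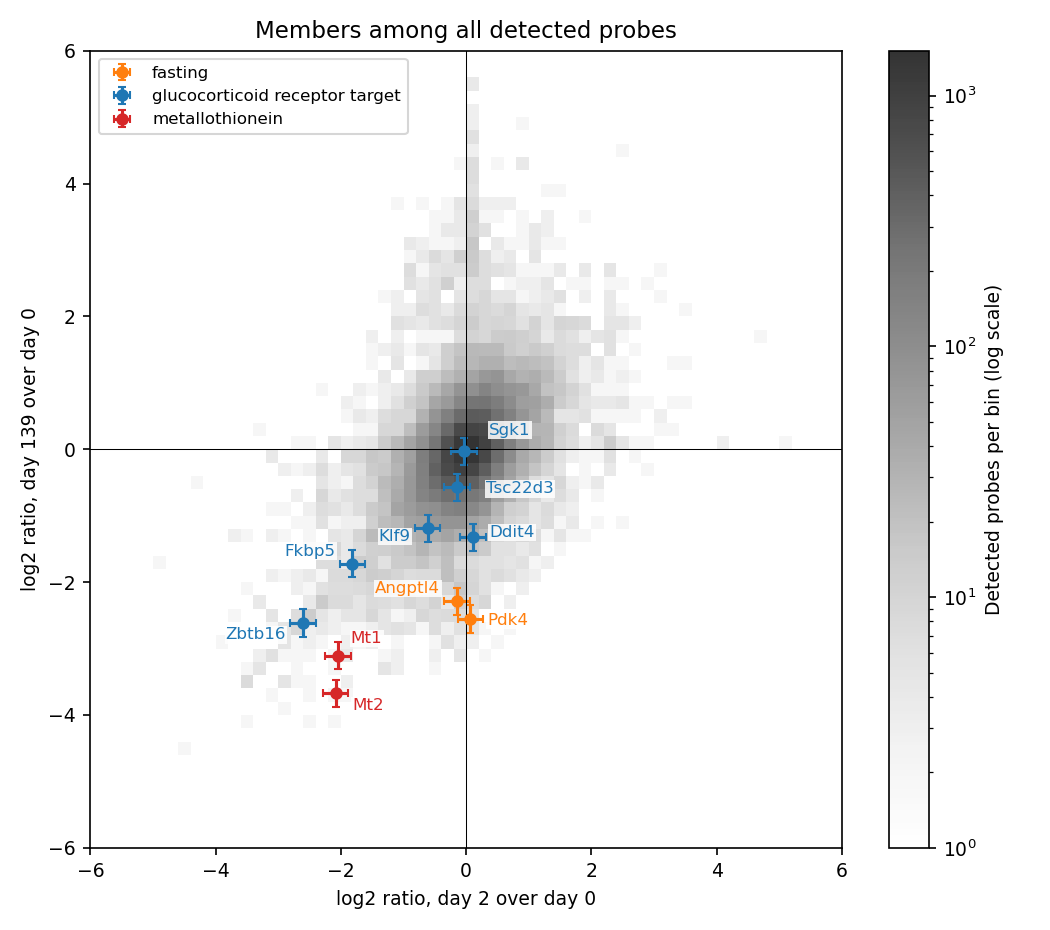
Log2 ratio of day 2 over day 0 (x axis) against log2 ratio of day 139 over day 0 (y axis) for the 10 genes, by the brightest probe of each, with the error of the scanner software. Grey squares count all detected probes in bins (log scale), bins beyond the axes are left out, and both axes share the day 0 array, which by itself spreads points along the diagonal. Pdk4, Angptl4 and Ddit4 lie near 0 on the x axis and between -2.55 and -1.32 on the y axis, while Zbtb16 and Fkbp5 lie near the diagonal.

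Among the glucocorticoid receptor targets, Fkbp5 encodes an immunophilin that joins the receptor complex and lowers its affinity for hormone, so that it acts as a feedback brake. The Fkbp5 signal was 4851 on day 0, 1378 on day 2 and 1468 on day 139. Only the day 0 array was high, and the later arrays differed by 0.09 in log2, within the scanner error. With the spike-in scaling they differed by 0.53, day 139 being the higher. Fkbp5 was 3.52-fold lower on day 2 than on day 0 (log2 ratio -1.82, Z-score -4.61) and 3.31-fold lower on day 139 (log2 ratio -1.72, Z-score -2.93). The probe maps to the minus strand of chromosome 17, from 28536060 to 28536119 (mm9).

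Zbtb16 encodes PLZF, a zinc finger repressor that is strongly induced by glucocorticoids and that also directs the development of natural killer T cells. The Zbtb16 signal was 543 on day 0, 89.0 on day 2 and 88.7 on day 139. As for Fkbp5, the day 0 array stood alone and the later arrays gave a ratio of 0.997 (log2 ratio 0.44 with the spike-in scaling). Zbtb16 was 6.10-fold lower on day 2 (log2 ratio -2.61 ± 0.21, Z-score -4.60), which placed it at rank 229 from the lowest of 32108 probes. On day 139 it was 6.12-fold lower than on day 0 (Z-score -4.12). Its probe lies on the minus strand of chromosome 9, from 48462419 to 48462478 (mm9).

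Klf9, a Krüppel-like transcription factor induced by glucocorticoid and thyroid hormone, had a signal of 1193 on day 0, 779 on day 2 and 524 on day 139. Each array was lower than the one before it, by more than the scanner error. With the spike-in scaling the step from day 2 to day 139 was -0.12 in log2, within that error. On the quantile normalized scale the day 2 ratio was 0.653, below 0.66, and the Z-score of -1.57 missed the criterion. On day 139 Klf9 was 2.28-fold lower than on day 0 and was called (log2 ratio -1.19, Z-score -2.22). The Klf9 probe maps to chromosome 19, plus strand, from 23240410 to 23240469 (mm9).

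Ddit4 encodes REDD1, an inhibitor of the growth kinase complex mTORC1 that glucocorticoids, low oxygen and energy stress induce. The Ddit4 signal was 23089 on day 0, 24845 on day 2 and 9235 on day 139. The first arrays differed by 0.11 in log2, within the scanner error, and the day 139 array was low. Ddit4 was 2.50-fold lower on day 139 than on day 0 (log2 ratio -1.32, Z-score -2.36) and 2.69-fold lower than on day 2 (log2 ratio -1.43, Z-score -2.79). Its probe lies on chromosome 10, minus strand, from 59412486 to 59412545 (mm9).

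Tsc22d3 encodes GILZ, a leucine zipper protein that carries part of the anti-inflammatory action of glucocorticoids in lymphocytes. The Tsc22d3 signal was 9030 on day 0, 8163 on day 2 and 6079 on day 139. The day 139 array was the lowest, with a ratio of 0.673 to day 0 that did not reach 0.66 and a Z-score of -0.98. The log2 ratio of day 2 over day 0 was -0.15, within the scanner error. With the spike-in scaling the log2 ratio of day 139 was -0.16 over day 0 and -0.07 over day 2, both within that error. The Tsc22d3 probe maps to chromosome X, minus strand, from 137074094 to 137074153 (mm9).

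Sgk1 encodes a kinase that acts on ion channels and on FOXO factors and is induced by glucocorticoid and mineralocorticoid hormone. The Sgk1 signal was 1140 on day 0, 1113 on day 2 and 1117 on day 139, a range of 0.03 in log2. No pair of arrays differed beyond the scanner error. The sign of its ratios changed with the scaling, and with the spike-in scaling the log2 ratio of day 139 over day 0 was 0.39. The Sgk1 probe maps to chromosome 10, plus strand, from 21719507 to 21719566 (mm9).

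Sgk1 was also the 1 member whose promoter held the full palindrome searched for the receptor, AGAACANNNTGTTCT, which was present in 3 of 32851 RefSeq promoter windows (0.00913%). The windows run from 250 bases before to 50 after each transcript start (RefSeq, GRCm38.p6), and 8 of the 10 genes had windows, 15 in all, 6 of them for Sgk1. The match lies at chr10:21993701-21993715, beginning 189 bases before the start of that transcript. The sequence is shown because the gene with this match had the flattest signal of the members on the quantile normalized scale. With the spike-in scaling Tsc22d3 was flatter (log2 ratio of day 139 over day 0 -0.16, against 0.39 for Sgk1). The capitals mark the palindrome.
Sgk1 promoter, chr10:21993640-21993939, strand +: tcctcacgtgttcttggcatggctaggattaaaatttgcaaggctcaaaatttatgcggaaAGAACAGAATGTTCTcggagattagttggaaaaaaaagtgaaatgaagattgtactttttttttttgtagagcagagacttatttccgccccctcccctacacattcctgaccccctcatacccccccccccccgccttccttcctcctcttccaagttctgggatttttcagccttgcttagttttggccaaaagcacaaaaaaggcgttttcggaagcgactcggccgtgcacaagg
The palindrome contains the shorter hexamer AGAACA on each strand, which alone was found in 19.0% of windows and, among the members, for Sgk1 and Tsc22d3 only. Receptor sites often lie far from a promoter, outside these windows.

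The metallothioneins Mt1 and Mt2 are small cysteine-rich proteins that bind zinc, and their genes lie next to each other on chromosome 8. The Mt2 signal was 74246 on day 0, 17505 on day 2 and 5821 on day 139. It was lower on each array than on the one before, by more than the scanner error, and its range of 3.67 in log2 was the widest of the 10 genes. Mt2 was 4.24-fold lower on day 2 than on day 0 (log2 ratio -2.08, Z-score -4.68). On day 139 it was 12.8-fold lower than on day 0 (log2 ratio -3.67, Z-score -6.95), at rank 52 from the lowest of 32108 probes. From day 2 to day 139 it was 3.01-fold lower (Z-score -3.28).

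The brighter Mt1 probe had a signal of 79677 on day 0, 19340.5 on day 2 and 9257 on day 139. It was 4.12-fold lower on day 2 (log2 ratio -2.04, Z-score -4.55) and 8.61-fold lower on day 139 (log2 ratio -3.11, Z-score -5.71). Both metallothioneins thus had their highest signal just after transplantation and their lowest on day 139. On day 2 their log2 ratios differed by 0.04 ± 0.29, and on day 139 that of Mt1 was 0.57 ± 0.29 above that of Mt2.

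The other Mt1 probe, designed on an Ensembl transcript, read 216 on day 0, 69.1 on day 2 and 24.3 on day 139. Its log2 ratios were -1.65 ± 0.22 on day 2 and -3.15 ± 0.34 on day 139, both called lower. The Mt1 probes disagreed by 0.40 ± 0.30 on day 2, where the brighter probe had the larger decrease, and differed by 0.05 ± 0.39 on day 139. Over the 60 bases of a probe, the Mt2 probe shared no run longer than 7 bases with the brighter Mt1 probe and 5 with the other. The brighter Mt1 probe lies at 96704165 to 96704224, the other at 96703844 to 96703903 and the Mt2 probe at 96697371 to 96697430, all on the plus strand of chromosome 8 (mm9).

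The Mt1 and Mt2 promoters were searched for the core of the metal response element, spelled TGCACNC or TGCGCNC on either strand. Any match was found in 25.7% of the 32851 windows and 2 or more in 7.11%. Mt1 held 3 matches and Mt2 held 4, while Ddit4 and Sgk1 held 1 each. Both windows are shown because these neighbouring genes had the lowest ratios of the 10 on day 139 against day 0, and the capitals mark the matches.
Mt1 promoter, chr8:94178839-94179138, strand +: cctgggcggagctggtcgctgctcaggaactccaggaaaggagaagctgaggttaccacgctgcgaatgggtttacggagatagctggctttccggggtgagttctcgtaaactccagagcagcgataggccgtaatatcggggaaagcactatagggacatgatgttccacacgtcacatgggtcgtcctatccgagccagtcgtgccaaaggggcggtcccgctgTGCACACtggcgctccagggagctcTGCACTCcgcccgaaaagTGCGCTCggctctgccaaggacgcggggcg
Mt2 promoter, chr8:94172368-94172667, strand +: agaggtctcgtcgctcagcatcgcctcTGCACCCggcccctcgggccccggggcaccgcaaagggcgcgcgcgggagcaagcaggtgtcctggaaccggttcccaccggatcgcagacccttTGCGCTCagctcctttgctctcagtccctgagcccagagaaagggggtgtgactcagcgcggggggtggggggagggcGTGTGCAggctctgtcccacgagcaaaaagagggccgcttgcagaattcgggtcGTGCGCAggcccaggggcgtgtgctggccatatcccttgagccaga
The other searches gave 1 match of the FOXO site GTAAACA, in Klf9 (3.65% of all windows), and no member match of the PPAR element, the direct repeat of AGGTCA with 1 base between the copies (0.0396% of all windows).

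**Figure D3:**
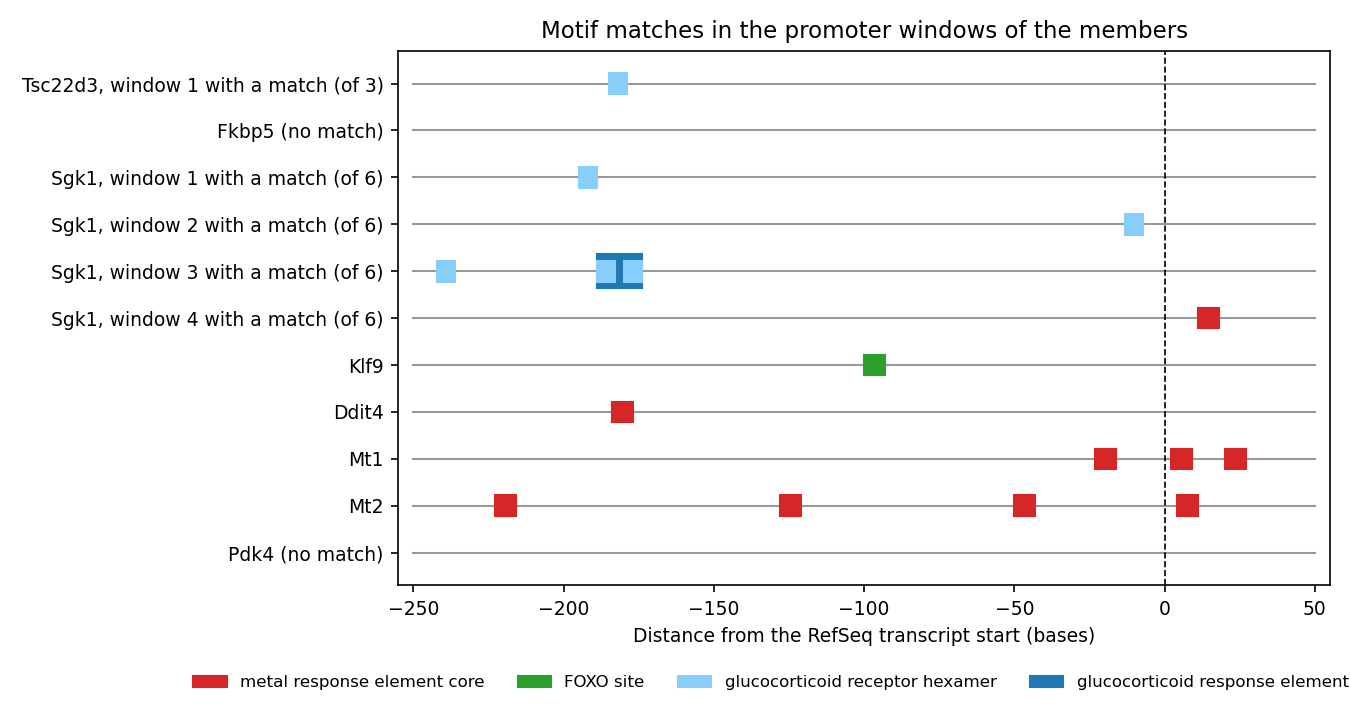
Position of each motif match in the RefSeq promoter windows of the members, as distance in bases from the transcript start (dashed line). For Tsc22d3 and Sgk1, which had 3 and 6 windows, only windows with a match are drawn. Metal response cores occurred 4 times in the Mt2 window and 3 times in the Mt1 window, and the full receptor palindrome occurred in 1 Sgk1 window.

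The fasting response genes Pdk4 and Angptl4 were both close to their day 0 signal on day 2 and lower on day 139. Pdk4 encodes the pyruvate dehydrogenase kinase that blocks entry of glucose carbon into the citric acid cycle when fat is burned. The Pdk4 signal was 672 on day 0, 704 on day 2 and 114 on day 139. The first arrays differed by 0.07 in log2, within the scanner error, and the day 139 array was low. Pdk4 was 5.88-fold lower on day 139 than on day 0 (log2 ratio -2.55, Z-score -3.90). Against day 2 it was 6.16-fold lower (log2 ratio -2.62, Z-score -3.68), at rank 174 from the lowest of 32108 probes. The Pdk4 probe maps to chromosome 6, minus strand, from 5433441 to 5433500 (mm9).

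Angptl4 encodes a secreted inhibitor of lipoprotein lipase, which PPAR factors and glucocorticoids induce. The Angptl4 signal was 8349 on day 0, 7547 on day 2 and 1709 on day 139. The log2 ratio of day 2 over day 0 was -0.15, within the scanner error. On day 139 Angptl4 was 4.89-fold lower than on day 0 (log2 ratio -2.29, Z-score -4.00) and 4.42-fold lower than on day 2 (log2 ratio -2.14, Z-score -3.62). Its probe lies on chromosome 17, minus strand, from 33911880 to 33911939 (mm9).

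The probes most like Mt2 were sought among 26886 other probes well above background on all arrays, by the Euclidean distance between log2 signals centred over the 3 arrays. The 5 nearest were Pip5k1a at 0.31, the dimmer Mt1 probe at 0.40, Gm6522 at 0.41, Retnlg at 0.41 and the brighter Mt1 probe at 0.45. Pip5k1a, a phosphoinositide kinase, read 21390 on day 0, 4751 on day 2 and 2098 on day 139. Retnlg, a resistin-like gene of neutrophils, read 13195, 2214 and 1055 on the same days. With 3 arrays, this is a description of the order and size of 3 signals and no more.

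Wider gene lists of the same pathways were set beside the members. Of 20 other glucocorticoid targets, 4 were called lower on day 2 (Il1r2, Errfi1, Map3k6 and Cebpd) and 7 on day 139, none higher, with medians of -0.41 and -0.57. Il1r2, the decoy receptor for interleukin-1, was the lowest of them on both days. Its signal was 2699 on day 0, 238 on day 2 and 150 on day 139, an 11.4-fold and an 18.0-fold difference from day 0. Errfi1, an inhibitor of the EGF receptor chosen here after its values were seen, read 7107, 2938 and 777. The highest of the list were Cited2 on day 2 (log2 ratio 0.39) and Bcl6 on day 139 (log2 ratio 0.69), and neither was called.

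The receptor itself, Nr3c1, had a log2 ratio of -0.23 on day 2 and 0.19 on day 139, and was not called. Of 13 detected genes for the receptor, its chaperones, its coregulators and the enzymes that activate corticosterone, 1 was called lower on each day, with medians of -0.07 and -0.23. That gene was H6pd, which supplies NADPH to the enzyme that makes corticosterone in tissue, with log2 ratios of -1.11 and -1.22, and its day 139 call was lost with the spike-in scaling. The highest among those well above background on both arrays compared were Stip1 on day 2 (0.24) and Ncoa2 on day 139 (0.38), neither called.

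Of 27 detected genes of fasting and fatty acid oxidation, 1 was called higher on day 2 and 2 were called lower on day 139, with medians of 0.18 and -0.02. Acot1, an acyl-CoA thioesterase that PPARα induces, was the one called higher on day 2, with a signal of 961 on day 0, 1727 on day 2 and 286 on day 139. On day 139 it was 3.36-fold lower than on day 0. Plin2, which coats lipid droplets, was the other gene called lower on day 139 (log2 ratio -1.45), and it read 6116, 7835 and 2243. With the spike-in scaling Plin2 was not called and Foxo1 was called higher on day 139. Acot1 and Plin2 were lowest on day 139, as were Pdk4 and Angptl4. Among genes well above background on both arrays compared, Vldlr was lowest on day 2 (-0.35) and Foxo1 highest on day 139 (0.75). Neither was called on the main scale. Beyond them lay G6pc on day 2 (-2.28 ± 0.57), well above background on day 0 alone. Pck1 was well above background on day 139 alone (3.62 ± 1.46). G6pc was called lower on day 2 with 75th percentile and spike-in scaling, and Pck1 higher on day 139 with normexp.

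The metal response list held zinc transporters, other metallothioneins, MTF1 and the enzyme of glutathione synthesis. Of its 8 genes, 1 was called lower on day 2 and none on day 139, with medians of -0.44 and -0.35. The zinc importer Slc39a10 was the one called (log2 ratio -1.14 on day 2), and with normexp background correction it was not called and the day 2 median was -0.22. Mt3, the metallothionein of the nervous system, was the highest on both days, at 0.11 and 0.05, and Slc39a14 was the lowest on day 139, at -1.09 and not called. With the spike-in scaling, the day 139 medians of the metal list (0.02), the receptor list (0.18) and the fasting list (0.39) turned positive, and that of the other glucocorticoid targets was -0.17, with 5 of them called lower.

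**Figure D4:**
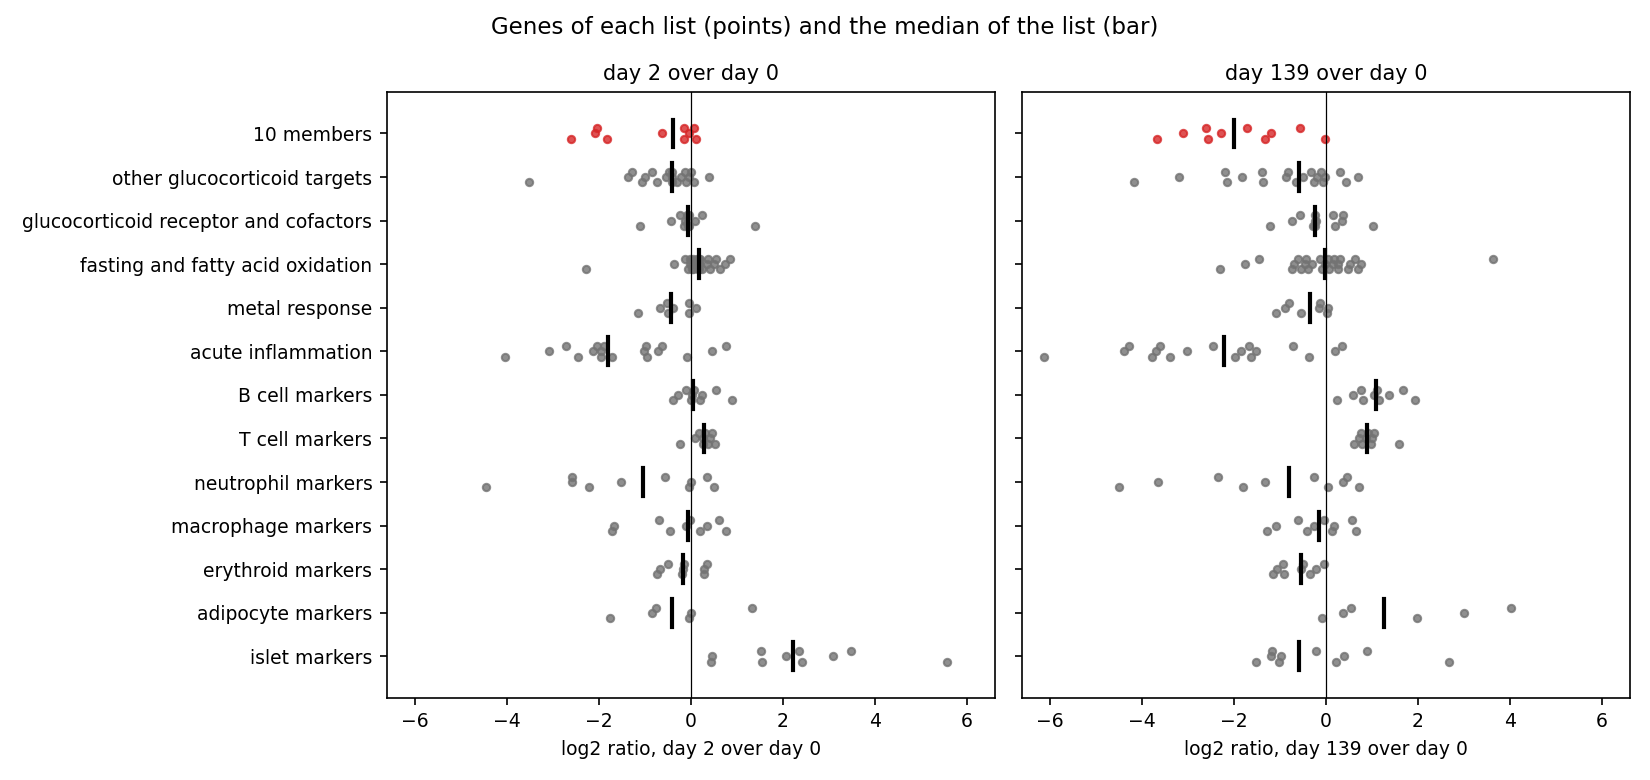
Log2 ratio of each gene (points) of the 10 members and of 12 other lists, for day 2 over day 0 (left) and day 139 over day 0 (right), with the median of each list as a bar. Some genes were well above background on only 1 of the arrays compared, or on neither. The member median was -0.38 on day 2 and -2.01 on day 139, and the acute inflammation median was -1.80 and -2.22.

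Markers of inflammation and of cell types were read on the same arrays. Of 18 detected genes of acute inflammation, 12 were called lower on day 2 and 14 on day 139, with Il6 lowest among those well above background on both arrays, 16.5-fold and 20.8-fold below day 0. The medians of -1.80 on day 2 and -2.22 on day 139 became -0.95 and -1.45 with normexp background correction. The highest were Saa3 on day 2 (0.77, called with 75th percentile scaling alone) and Cxcl10 on day 139 (0.34, not called). Of 10 neutrophil markers, 5 were called lower on each day (S100a8, S100a9, Cxcr2, Mmp8 and Retnlg), and their summed signal was 266682 on day 0, 115080 on day 2 and 121365 on day 139. Their medians were -1.04 on day 2 and -0.79 on day 139, the latter being -0.31 with the spike-in scaling, under which S100a9 was not called. The collagenase Mmp8 was the lowest (-4.44 and -4.49), while Camp, a granule gene of immature neutrophils, was the highest (0.50 and 0.72) and was not called. Summed signals, here and for the lists below, weigh the brightest probes of a list most. Fewer cells of a type and less RNA per cell cannot be told apart in whole spleen. The part of these markers in the member ratios was not tested.

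Of 10 B-cell markers, none was called on day 2 (Fcer2a was with 75th percentile scaling) and 4 were called higher on day 139 (Cd79a, Cd79b, Blk and Fcer2a), with a median of 1.08 and a summed signal of 55644 on day 0, 55582 on day 2 and 105586 on day 139. Blk was the highest on day 139 (1.94) and Cr2 the lowest (0.23), with Fcer2a (0.90) and Ms4a1 (-0.38) at the ends on day 2. The 10 T-cell markers had medians of 0.29 and 0.90 with none called, from Trat1 (-0.24 and 0.61) to Lck on day 2 (0.52) and Cd247 on day 139 (1.60). With the spike-in scaling, 8 B-cell and 7 T-cell markers were called higher on day 139. Of 10 macrophage markers, 2 were called lower on each day (Hmox1 on both, Spic on day 2 and Marco on day 139), with Emr1 highest (0.76 and 0.65) and Spic (-1.72) and Marco (-1.28) lowest. Their medians were -0.06 on day 2 and -0.15 on day 139, the latter being 0.27 with the spike-in scaling, under which neither Hmox1 nor Marco was called on day 139.

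Of 9 detected erythroid markers, none was called on day 2 and 1 was called lower on day 139, with medians of -0.16 and -0.53. Alas2 was the highest on day 2 (0.36), Epb4.2 the lowest on day 2 (-0.72) and the highest on day 139 (-0.04), and Rhag the lowest on day 139 (-1.14). With the spike-in scaling Rhag was not called and the day 139 median was -0.10. Of 6 detected adipocyte markers, 1 was called lower on day 2 and 3 were called higher on day 139 (Cfd, Adipoq and Cidec), with a day 139 median of 1.27 (0.58 with normexp) and a summed signal of 1610 on day 0, 949 on day 2 and 2882 on day 139. Cfd rose 8.01-fold on day 139, from 166 to 1327, while Fabp4 was at -0.08. Among adipocyte markers well above background on both arrays compared, Lipe was highest on day 2 (0.01) and Retn lowest (-1.75). The part of adipocyte RNA in the Pdk4 and Angptl4 signals was not tested. Of 10 islet markers, 8 were called higher on day 2, all but Ins1 and Ins2. On day 139, Ttr was called higher, though not with normexp, and Gcg was called lower. Their medians were 2.22 and -0.60 (-0.19 with the spike-in scaling). Among islet markers well above background on both arrays compared, Chgb (3.48) and Ins1 (0.45) were at the ends on day 2. On day 139 they were Scg2 (0.90) and Gcg (-1.51). Whether graft cells contributed to the member signals was not tested.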

How the data were processed

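Total RNA of graft-bearing spleens was labelled with Cy3 and hybridized to Agilent 60-mer mouse arrays, 1 array per time point. The authors deposited the scanner output, background-subtracted intensity values per spot on a linear scale. Per the file headers it was made with Feature Extraction 10.7.1.1, whereas the submitters' processing notes name 9.5.1.1. The authors also deposited 1 table of quantile normalized intensity values, used as an alternative, whose column medians are all 22.0 and whose log2 ratios for the members differed from those below by at most 0.00103.

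After removal of control spots and of spots flagged as outliers, spots of a probe were averaged, and 55679 probes were quantile normalized over 3 arrays, floored at 1 and taken to log2. Detected were 32108 probes well above background on at least 1 array. The criterion of a Z-score and a ratio followed the methods, which do not define the Z-score. The spread was taken here over the 1000 probes nearest in mean signal. The calculation was tested on simulated data. No p-value was computed. The error of a ratio combined the error of the scanner software on both arrays, which assumes a multiplicative error of 10%. With 3 arrays, their number limits the precision.

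Genes were given by the brightest detected probe. Besides the members, 12 lists were written from general knowledge, for other glucocorticoid targets, the receptor and its cofactors, fasting and fatty acid oxidation, metal response, acute inflammation, and B-cell, T-cell, neutrophil, macrophage, erythroid, adipocyte and islet markers. The members and lists were chosen with earlier results of these data known. Named are all members, the highest and lowest gene of each list on day 2 and day 139 against day 0 among those well above background on both arrays, and the 5 probes most like the member of widest range. Nr3c1, Errfi1, Plin2, G6pc, Pck1 and genes that carry a count were added after their values were seen. Names are those of the array. Of 34796 names, 22290 matched a RefSeq table of GRCm38.p6, the members all 10. Probe positions are those of the files (mm9), and the exon or UTR that a probe lies in was not annotated here. Promoters came from RefSeq (GRCm38.p6), with no window for Zbtb16 and Angptl4. Python 3.11.15, numpy 2.4.6, pandas 2.3.3, R 4.3.3 and limma 3.58.1 (normexp) were used. Alternatives were the background correction, the scaling, the floor, detection, outlier spots, the spread behind the Z-score, the ratio limit and the probes of a gene.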

Additional observations from a re-analysis of the deposited data

How the results depend on the processing

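With 1 array per time point there is no replicate to leave out and no test. No paired analysis was possible because no time point has more than 1 sample. The counts of 4, 8 and 5 members called lower were unchanged under normexp background correction, 75th percentile scaling, the deposited values, the raised floor, both detection rules, outlier spots kept, a window of 250 probes, a scaled median absolute deviation, and limits of 2 and 0.5. The scaled median absolute deviation is a looser criterion, with 4.87%, 5.41% and 4.73% of all probes called lower. Spike-in scaling gave 4, 6 and 3, and 1 SD over all probes gave 4, 6 and 2, the last of these for day 139 over day 2. Under spike-in scaling the median member log2 ratio was -1.59 for day 139 over day 0 and -0.40 for day 139 over day 2. The signal of the 8 spike-ins on day 139 was 65.6% of that on day 0 (103.6% on day 2), which shifts all day 139 ratios up by that construction, and for day 139 over day 2 it gave 0.847% of all probes called lower and 5.09% higher. Whether the spike-in difference reflects the RNA or the array was not tested. Of the 30 member ratios, 20 moved beyond the scanner error under spike-in scaling and 4 under normexp, which gave smaller decreases for Zbtb16 and Pdk4. No called ratio changed sign under these settings.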
